A study of Mus musculus with 10 samples.

Results

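The MYC, MAX and MXD network is described here by 10 genes, taken by symbol from the 55401 gene rows of the count table: Myc, Mycn, Mycl, Max, Mxd1, Mxd3, Mxd4, Mnt, Mlx and Mga. All 10 had a row. Of these, 9 passed the filter on low counts and were tested among 17464 genes, and Mycn did not.

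RNA was sequenced from 10 subcutaneous tumors grown from KPN1.1, a single mouse lung adenocarcinoma line, in male C57BL/6J mice with diet-induced obesity. Each mouse received 75000 tumor cells in the flank at an age of 7 to 17 weeks, and tumors were collected between days 19 and 22 or on reaching the size limit. Of the tumors, 5 came from treatment with liraglutide, an agonist of the GLP-1 receptor, and 5 from the PBS vehicle. The drug was dosed at 0.2 µg per g body weight each day by the intraperitoneal route, starting when growth was first palpable. Both groups therefore share the line, the induction of obesity by diet and the site, and the comparison asks how tumor transcripts differ with the drug. The study reports greater weight loss and smaller tumors in treated obese mice. Differences with the drug cannot be told apart here from differences with body weight or tumor size.

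MYC, MYCN and MYCL are transcription factors that pair with MAX to bind the E-box sequence and raise transcription of genes for ribosome production, metabolism and cell division. MXD proteins and MNT pair with the same partner and bring in the SIN3 and histone deacetylase corepressor, so they oppose MYC at shared sites, and MGA joins MAX in a Polycomb repressor complex. MLX is a MAX-like partner that pairs with MNT, with some MXD proteins and with the glucose-sensing factors MondoA and ChREBP, and MYC levels are commonly raised in lung adenocarcinoma.

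Total counts lay between 9927942 and 14480593 per tumor, so that 3 counts corresponded to 0.207 to 0.315 CPM, counts scaled to a common library size. CPM values were scaled by the trimmed mean of M values (TMM). Of 8 lung epithelial and adenocarcinoma markers, 7 were detected in every tumor and Sftpc was at 0 in at least 1. Their summed level was 4729 to 10128 CPM in vehicle and 4948 to 7330 CPM in liraglutide tumors. Of the marker lists, that of keratinocytes had the largest median log2 fold change (2.96): 3 of 4 tested were higher with liraglutide at an unadjusted p under 0.05, beside 3.97% of all tested genes, and their summed level was 8.57 to 17.6 CPM in vehicle and 6.74 to 202 CPM in liraglutide tumors. Krt1, Krt5 and Lor were at 0 in at least 1 tumor, and the part of such cells in the values given here was not tested.

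Per kilobase of exon, Myc was the most abundant of the 10 genes and Mga the next. The lengths join all exons of a gene in GENCODE M39, and the annotation used for counting is not known. Without division by length Mga stood above Myc, with 295 against 137 CPM in vehicle and 306 against 117 CPM in liraglutide tumors. Myc averaged 46.5 CPM per kilobase over the 10 tumors (range 37.8 to 56.3), and Mga averaged 19.6 (range 16.97 to 22.8), and these ranges did not overlap each other or those of the other 8 genes. Mxd1 (10.3), Max (10.1), Mlx (9.98) and Mnt (8.77) followed, and their order is not settled, since the range of each overlapped that of the next. Mxd4 averaged 4.83, with a range that overlapped that of Mnt, although Mnt was the higher gene in 10 of 10 tumors. Mxd3 averaged 0.853. Mycl (0.225) and Mycn (0.211) were last and overlapped, with Mycl the higher in 7 of 10 tumors.

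**Figure D1:**
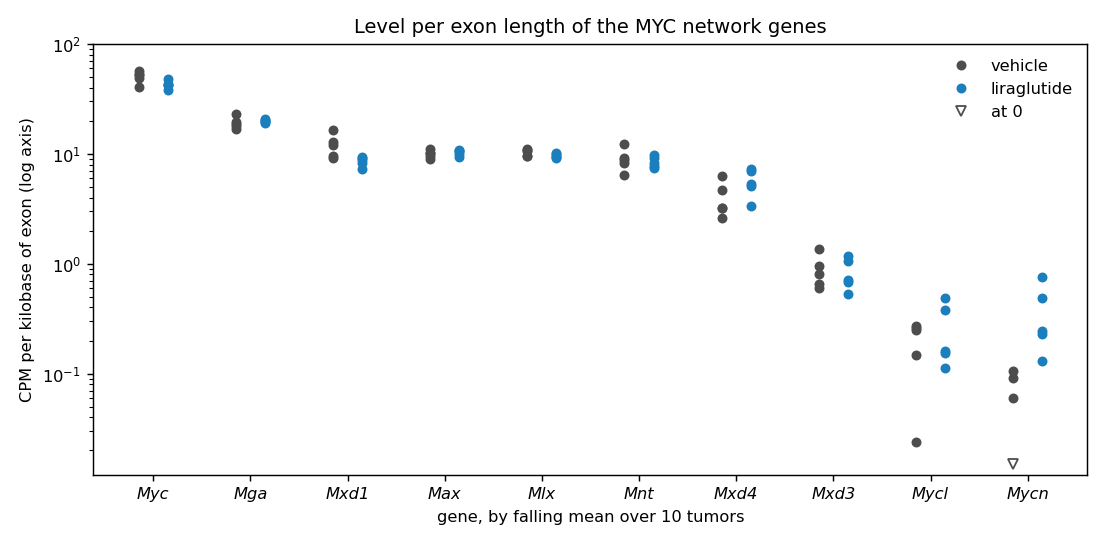
Level of each network gene in each tumor, in CPM per kilobase of exon on a log axis, with genes ordered by their mean over 10 tumors. Myc and Mga stand apart above the rest, the genes from Mxd1 to Mnt share one range near 10, and the open triangle marks the vehicle tumors with no Mycn count.

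Of the 10 genes, 9 had a promoter sequence in the RefSeq set for GRCm38.p6, which covers 250 bases before to 50 bases after a start; Myc had none. The E-box CACGTG, searched as these letters, which read the same on both strands, was present in the promoters of Max, Mlx, Mnt and Mxd4, that is in 4 of the 9. It was present in 7.15% of 32851 mouse promoters and at 8.09% of 27025 genes. The windows below are shown because they hold the letters that the network's own proteins bind; capitals mark the E-box, sequences run in the direction of transcription, and a window near the start, that of Max, is cut off shortly after it.

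Max, chr12:76962229-76962301, minus strand, E-box starting 3 bases before the start: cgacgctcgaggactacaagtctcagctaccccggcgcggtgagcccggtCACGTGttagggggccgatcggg

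Mlx, chr11:101087200-101087305, plus strand, E-box 40 bases before the start: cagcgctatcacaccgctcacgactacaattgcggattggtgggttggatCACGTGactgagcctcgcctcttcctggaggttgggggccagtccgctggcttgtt

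Mnt, chr11:74830751-74830856, plus strand, E-box 123 bases before the start: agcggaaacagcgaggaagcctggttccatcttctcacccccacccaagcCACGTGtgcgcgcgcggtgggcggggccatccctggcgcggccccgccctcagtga

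Mxd4, chr5:34187874-34187960, minus strand, E-box 219 bases before the start: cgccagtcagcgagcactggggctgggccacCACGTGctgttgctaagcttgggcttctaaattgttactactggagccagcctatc

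The promoter of Mycn is shown for a different reason: E2F factors act there in cycling cells. An E2F-like motif, searched as TTTGGCGC or TTTCCCGC on both strands, matched it 2 times, starting 183 and 168 bases before the start, and was present in 1.56% of all promoters. It was the only member with a match. These matches are letters in a window and say nothing about binding in the tumors.

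Mycn, chr12:12941947-12942069, minus strand, E2F-like matches in capitals: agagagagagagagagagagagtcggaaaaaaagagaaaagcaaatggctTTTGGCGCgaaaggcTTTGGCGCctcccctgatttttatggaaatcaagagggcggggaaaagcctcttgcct

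No network gene differed between liraglutide and vehicle after adjustment over all 17464 genes, and neither did any other gene (edgeR quasi-likelihood test, Benjamini-Hochberg adjusted p under 0.05; percent of genes called, 0). At an unadjusted p under 0.05, 1 of the 9 tested members was called, Mxd1, against 9.59% of all genes (694 higher and 981 lower). Without vehicle 4, 2 members were higher and 2 lower at that p, beside 1268 higher and 1436 lower of 17816 genes. The number lower was also 2 without liraglutide 2, and 1 member was higher without any 1 of vehicle 1, 2, 3 or 5 or liraglutide 1 or 2. Of all genes, 1410 were lower without liraglutide 2, and 447 to 1086 were higher in the latter fits. Mycn passes the filter in some fits with a tumor left out, so these counts are not always of the same 9 genes. DESeq2 called 52 of the 3796 genes to which it gave an adjusted p (1.37%), and none of them was a member, but of the members only Myc, Mxd1 and Mga were given one. Over the 9 members the median log2 fold change was -0.06, beside -0.02 over all tested genes, and its sign was not settled: with 1 tumor left out, which lets Mycn pass the filter in some fits, it ran from -0.05 to 0.05. The groups are of bulk tissue, in which fewer cells of a type and less RNA per cell cannot be told apart.

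**Figure D2:**
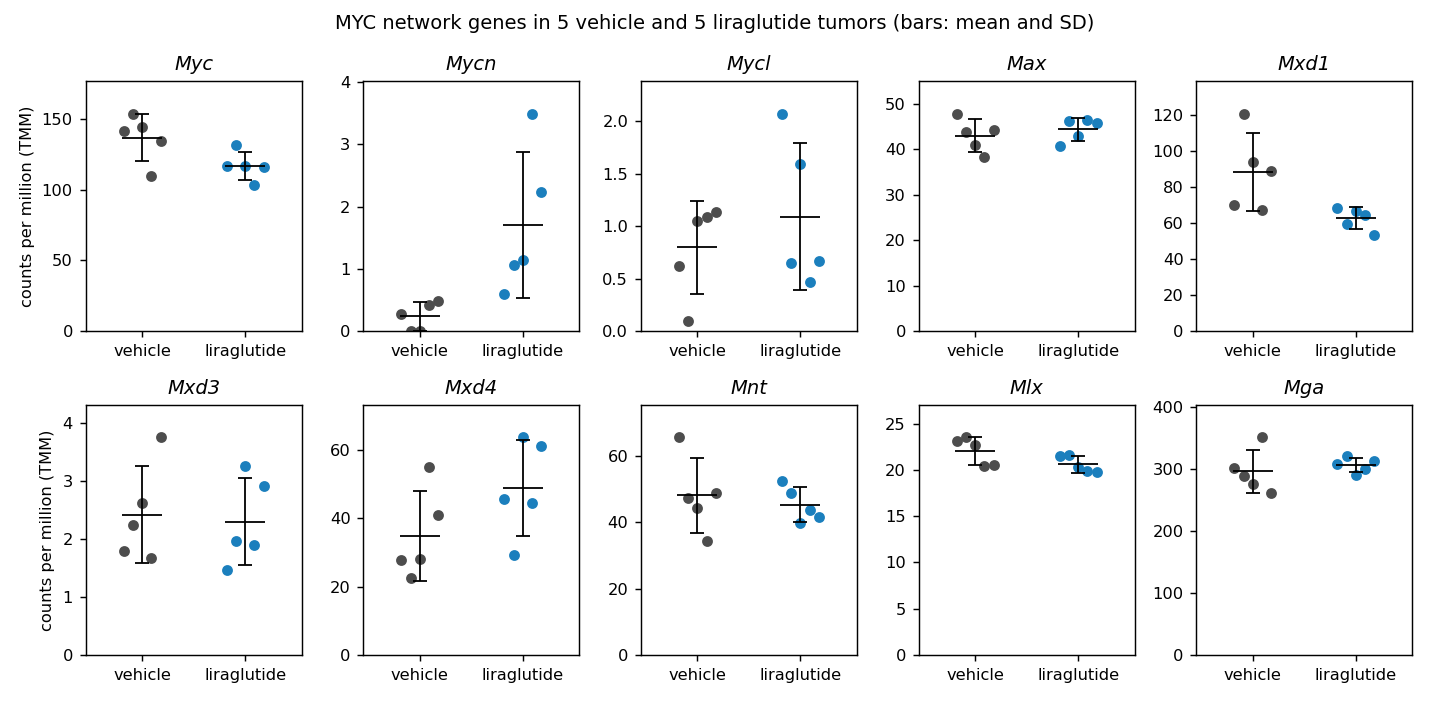
CPM of the 10 network genes in 5 vehicle and 5 liraglutide tumors, 1 point per tumor, each panel from 0, with the mean and SD as bars. The groups overlap for every gene except Mycn, and Mxd1 has 4 liraglutide tumors below all vehicle tumors.

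Among the activators, Myc (ENSMUSG00000022346.16; chromosome 15, 61857227 to 61862223, plus strand, GRCm39) was expressed at 142, 154, 144, 110 and 135 CPM in vehicle tumors 1 to 5 and at 117, 131, 117, 103 and 116 CPM in liraglutide tumors 1 to 5. The groups overlapped through vehicle 4, and the other vehicle tumors lay above all liraglutide tumors. The means were 137 ± 16.5 and 117 ± 10.002 CPM (SD, n = 5 each). The log2 fold change was -0.23 (SE 0.11), with an edgeR adjusted p of 0.529 and a two-sided exact permutation p of 0.0635. The long noncoding RNA gene Pvt1, the neighbor of Myc, averaged 17.2 and 14.4 CPM, a log2 fold change of -0.25 (edgeR adjusted p = 0.590).

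Mycn (ENSMUSG00000037169.15; chromosome 12, 12986076 to 12992915, minus strand), the paralog best known from neuroblastoma and embryonic tissue, was nearly silent. It had 4, 0, 0, 5 and 6 counts in vehicle tumors and 7, 13, 15, 37 and 30 counts in liraglutide tumors. All 5 liraglutide tumors lay above all 5 vehicle tumors, which made Mycn the 1 member of 10 without overlap, beside 1.49% of tested genes in either direction, and the highest counts were in liraglutide 4 and 5. In CPM the means were 0.237 ± 0.229 and 1.71 ± 1.17 (SD, n = 5 each), a ratio of 7.21, and in vehicle 2 and 3 a count of 0 allows up to 0.304 and 0.315 CPM. The two-sided exact permutation p of the log2 CPM was 0.00794, the smallest that 5 against 5 tumors allow. Mycn was below the edgeR filter. Of 2572 genes left out by that filter with at least 50 counts in all, 15 (0.583%) had all liraglutide tumors above all vehicle tumors, as did 0.427% of genes with at least 1 count. When every gene with a count was fitted, the log2 fold change of Mycn was 2.71 (SE 0.67) with an edgeR adjusted p of 0.620. DESeq2 gave a log2 fold change of 2.79 (SE 0.71) with an unadjusted p of 9.7e-05 in its fit across all genes, and no adjusted p. At its highest, in liraglutide 4, Mycn stood at 3.50 CPM beside 103 CPM of Myc.

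Mycl (ENSMUSG00000028654.13; chromosome 4, 122889408 to 122896282, plus strand), first known from small cell lung cancer, was also low. It had 9, 1, 10, 13 and 14 counts in vehicle and 24, 8, 21, 5 and 9 counts in liraglutide tumors. The groups overlapped, with the lowest value in vehicle 2 and the highest in liraglutide 1. The log2 fold change of 0.44 had an SE of 0.54 (edgeR adjusted p = 0.790), and it was 0.09 without liraglutide 1.

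Max (ENSMUSG00000059436.13; chromosome 12, 76984043 to 77009009, minus strand), the shared partner of the activators and repressors, was nearly constant. It stood at 47.8, 43.7, 40.8, 38.3 and 44.2 CPM in vehicle and at 40.6, 46.2, 42.8, 46.5 and 45.7 CPM in liraglutide tumors. The log2 fold change was 0.05 (SE 0.09; edgeR adjusted p = 0.878). Only 4.62% of 2379 genes of like level had a smaller SD of log2 CPM within the groups. Myc exceeded Max per kilobase in 10 of 10 tumors, by 4.53 to 5.58 times in vehicle and 3.50 to 4.54 times in liraglutide tumors.

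Among the repressors, Mxd1 (ENSMUSG00000001156.9; chromosome 6, 86624024 to 86646218, minus strand), which is known to come on as cells leave the cycle and differentiate and is abundant in neutrophils, gave the smallest p of the 9 members tested in edgeR. It stood at 70.1, 121, 94.2, 67.4 and 88.8 CPM in vehicle and at 68.6, 59.8, 66.8, 64.7 and 53.4 CPM in liraglutide tumors. All liraglutide tumors but tumor 1 lay below all vehicle tumors, and the vehicle tumors were the more spread. The means were 88.2 ± 21.6 and 62.7 ± 6.11 CPM (SD, n = 5 each), and the log2 fold change was -0.49 (SE 0.16). The unadjusted edgeR p was 0.00958 and the adjusted p 0.482, and the two-sided exact permutation p was 0.0159. Neutrophil markers summed to 5.02 to 12.5 CPM in vehicle and 5.70 to 12.2 CPM in liraglutide tumors, with Ly6g at 0 in all 10 and none of the 3 tested markers at an unadjusted p under 0.05. Gm44292, an unclassified gene on the same strand within Mxd1, had a log2 fold change of -0.55 (edgeR, in the fit across all genes). Reads of the pair may have been split in counting.

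Mxd4 (ENSMUSG00000037235.13; chromosome 5, 34331227 to 34345240, minus strand), a family member of resting and differentiated cells, lay the other way from Mxd1. Its values were 27.7, 22.6, 27.9, 54.8 and 41.0 CPM in vehicle and 45.7, 29.1, 63.6, 44.3 and 61.0 CPM in liraglutide tumors. The groups overlapped widely, with liraglutide 2 among the low values and vehicle 4 among the high ones. The means were 34.8 ± 13.1 and 48.8 ± 14.01 CPM (SD, n = 5 each), with a log2 fold change of 0.49 (SE 0.27; edgeR adjusted p = 0.578; two-sided exact permutation p = 0.127). Mxd1 exceeded Mxd4 per kilobase in 10 of 10 tumors, by 1.45 to 6.32 times in vehicle and by 1.04 to 2.43 times in liraglutide tumors. An antisense gene, Mxd4os1, overlaps Mxd4.

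Mxd3 (ENSMUSG00000021485.14; chromosome 13, 55472981 to 55477908, minus strand), the member of the family seen in dividing cells, stood between 1.67 and 3.75 CPM in vehicle and between 1.47 and 3.26 CPM in liraglutide tumors. The log2 fold change was -0.06 (SE 0.30; edgeR adjusted p = 0.954). Prelid1, on the opposite strand, overlaps Mxd3 over 1526 bases and stood at 102 to 159 CPM, and without strand the reads of the pair cannot be told apart. Whether strand was used in counting is not given in the sources used here. Prelid1 itself had a log2 fold change of -0.26.

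Mnt (ENSMUSG00000000282.12; chromosome 11, 74721338 to 74736836, plus strand), the repressor made in nearly all cells, stood between 34.5 and 65.6 CPM in vehicle and between 39.9 and 52.4 CPM in liraglutide tumors. The liraglutide range lay within the vehicle range, and the log2 fold change was -0.09 (SE 0.16; edgeR adjusted p = 0.864). Mxi1, the MXD gene that is not among the 10, had the widest range of the repressors, from 39.7 to 165 CPM in vehicle and from 39.7 to 104 CPM in liraglutide tumors. Its log2 fold change of -0.63 had an SE of 0.39 (edgeR adjusted p = 0.610).

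Levels per kilobase were also taken as shares of the sum over the 5 repressor genes Mxd1, Mxd3, Mxd4, Mnt and Mxi1. The median share of Mxd1 was 32.0% in vehicle tumors and 25.5% in liraglutide tumors, and that of Mxd4 was 8.23% and 16.8%. Both pairs of ranges overlapped (20.6% to 36.9% against 23.8% to 29.8% for Mxd1, 5.06% to 21.2% against 10.5% to 24.0% for Mxd4).

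Mlx (ENSMUSG00000017801.15; chromosome 11, 100978080 to 100983043, plus strand) was the least variable member. It stood at 23.1, 23.5, 22.7, 20.4 and 20.5 CPM in vehicle and at 21.5, 21.6, 20.3, 19.8 and 19.7 CPM in liraglutide tumors. Vehicle 4 and 5 lay among the liraglutide values, and the other vehicle tumors lay above them. The log2 fold change was -0.10 (SE 0.09; edgeR adjusted p = 0.735; two-sided exact permutation p = 0.103). Only 0.297% of 2356 genes of like level had a smaller SD within the groups. Mlx had 210 to 334 counts per tumor, and the part of counting error in this small spread was not tested. Mlxip, which encodes MondoA, stood at 60.0 ± 7.31 and 67.4 ± 4.57 CPM (SD, n = 5 each; log2 fold change 0.17; edgeR adjusted p = 0.607), and Mlxipl, which encodes ChREBP, had between 0 and 9 counts per tumor.

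Mga (ENSMUSG00000033943.15; chromosome 2, 119727694 to 119800062, plus strand), a very large protein with both a T-box and a MAX-binding region, stood at 302, 289, 276, 350 and 261 CPM in vehicle and at 307, 320, 290, 299 and 313 CPM in liraglutide tumors. All liraglutide values lay within the vehicle range, and the log2 fold change was 0.05 (SE 0.09; edgeR adjusted p = 0.874).

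The other genes of the pathway were read from lists by role, and none passed the adjusted threshold in edgeR. Among 15 coactivators and cofactors of MYC, 0 were called at an unadjusted p under 0.05, beside 9.59% of all genes, and the median log2 fold change was -0.03. Without vehicle 4, 1 was lower, and without vehicle 5 or liraglutide 2, 1 was higher. In these fits 1436 of all genes were lower, and 1086 and 1038 were higher. DESeq2 put 2 higher at that p, library size alone 3 and the filter of at least 10 counts in every tumor 2. Of all genes, 992, 990 and 742 were higher in these settings. The median had no settled sign, turning to 0.02 with library size alone. Bptf, a subunit of the NURF chromatin remodeler (log2 fold change 0.17), and Hcfc1, a cofactor of chromatin enzymes (0.15), had the smallest p of those with a higher mean; 4 liraglutide tumors lay above all vehicle tumors for each (edgeR adjusted p = 0.545 and 0.566). Ruvbl2, an ATPase of chromatin complexes (-0.24), and Zbtb17, which encodes the MYC partner MIZ1 (-0.19), had the smallest p of those with a lower mean (edgeR adjusted p = 0.601 and 0.687).

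Among 16 genes that act on MYC protein stability, 1 was called at an unadjusted p under 0.05, a share below the 9.59% of all genes, and the median was -0.10. The number lower was 0 without vehicle 1, 2 or 3 or liraglutide 1, 3, 4 or 5, and 2 without vehicle 5. Over all genes it was 528 to 854 in the former fits and 1323 without vehicle 5, beside 981 with all tumors. Without vehicle 5, 1 gene of the list was also higher, beside 1086 of all genes. The called gene was Cip2a, whose product shields MYC from the phosphatase PP2A, at 86.0 ± 23.8 CPM in vehicle and 59.9 ± 15.02 CPM in liraglutide tumors (SD, n = 5 each; log2 fold change -0.52, SE 0.22; edgeR adjusted p = 0.510). The ubiquitin ligase gene Huwe1 and the kinase gene Gsk3b had log2 fold changes of 0.13 and 0.15 (edgeR adjusted p = 0.603 and 0.622).

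Among 16 genes of the SIN3 and histone deacetylase corepressor, 2 were called at an unadjusted p under 0.05, both lower, beside 5.62% of all genes lower, and the median was -0.09. The number lower was 6 without liraglutide 2, 4 without vehicle 5, 3 without vehicle 4, and 1 or 2 without each other tumor. Over all genes it was 1410, 1323 and 1436 in the fits named, and 528 to 854 without each other tumor. With all tumors it was 981. Sap30, a SIN3 subunit, stood at 30.9 ± 8.34 and 20.8 ± 3.63 CPM (log2 fold change -0.57, SE 0.19), with 4 liraglutide tumors below all vehicle tumors, and Ing2, a reader of histone methylation in that complex, at 24.7 ± 7.75 and 17.3 ± 2.34 CPM (-0.51, SE 0.21; edgeR adjusted p = 0.482 and 0.503; SD, n = 5 each). The corepressor gene Ncor1 had a log2 fold change of 0.23 (edgeR adjusted p = 0.571). Among 10 genes of the MGA Polycomb complex 0 were called at that p, beside 9.59% of all genes. Of the 10, 8 had a lower mean with liraglutide, beside 52.6% of all genes, and the median was -0.15 (-0.21 to -0.07 with each tumor left out). The number lower at that p was 2 without vehicle 5 and 1 without vehicle 4 or liraglutide 2. In these fits 1323, 1436 and 1410 of all genes were lower at that p. Yaf2 (-0.17), Tfdp1 (-0.23), Ring1 (0.08) and L3mbtl2 (0.08) had edgeR adjusted p of 0.606 to 0.884.

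Of 45 genes commonly used as MYC-activated targets, 44 were tested (Nme2, with at most 9 counts, was not) and 40 had a lower fitted mean with liraglutide, beside 52.6% of all tested genes. The median log2 fold change was -0.19. At an unadjusted p under 0.05, 7 were lower and 0 higher, beside 5.62% and 3.97% of all genes. These were Nop58, Ldha, Hspe1, Npm1, Eno1, Hspd1 and Mrto4. The number was 13 without vehicle 4, 11 without liraglutide 2, and 4 without vehicle 3 or liraglutide 5. Over all genes the number lower moved as well, from 981 with all tumors. It was 1436 without vehicle 4, 1410 without liraglutide 2, 768 without vehicle 3 and 528 without liraglutide 5. The proliferation markers moved with this list: all 8 had a lower fitted mean, 1 at an unadjusted p under 0.05, and their summed level was 979 to 2018 CPM in vehicle and 1141 to 1902 CPM in liraglutide tumors. The part of proliferation in the values of the list was not tested.

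Nop58, a core protein of box C/D small nucleolar ribonucleoproteins, was the 1 listed gene whose groups did not overlap (155 of 17464 tested genes, 0.888%, were lower without overlap). It stood at 154 to 180 CPM in vehicle and 110 to 150 CPM in liraglutide tumors, with a log2 fold change of -0.40 (SE 0.10; edgeR adjusted p = 0.482; two-sided exact permutation p = 0.00794). With DESeq2 its adjusted p was 0.0432, the only call among the listed genes, and over the other settings the adjusted p was up to 0.620, or up to 0.900 with a tumor left out. Ldha, which makes lactate, stood at 1457 ± 230 and 1099 ± 96.5 CPM (SD, n = 5 each; log2 fold change -0.41; edgeR adjusted p = 0.482), with 4 liraglutide tumors below all vehicle tumors. The 2 genes with a higher mean and the smallest p were Ccnd2 (log2 fold change 0.25, SE 0.47), a D-type cyclin, and Tert (0.15, SE 0.29), the telomerase catalytic subunit (edgeR adjusted p = 0.867 and 0.877).

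The 9 genes commonly used as MYC-repressed targets went both ways: 6 had a lower fitted mean, beside 52.6% of all tested genes, and the median was -0.13, from -0.26 without liraglutide 1 to -0.08 without liraglutide 2. Without vehicle 4, 1 of these genes was higher at an unadjusted p under 0.05, beside 1268 of 17816 genes. Cdkn1a, the cell cycle inhibitor p21, and Ndrg1, a stress and hypoxia gene, were the 2 called at an unadjusted p under 0.05, with log2 fold changes of -0.48 (SE 0.20) and -0.59 (SE 0.23; edgeR adjusted p = 0.512 and 0.499), beside 5.62% of all genes lower at that p. The count was 0 without vehicle 3 or liraglutide 5, 3 without vehicle 4 or liraglutide 1, and 1 or 2 without each other tumor. Over all genes the number lower was 768 without vehicle 3, 528 without liraglutide 5, 1436 without vehicle 4 and 854 without liraglutide 1. With all tumors it was 981. Cebpa, a differentiation factor, and Sesn1, a stress gene, had 0.65 (SE 0.63) and 0.17 (SE 0.12; edgeR adjusted p = 0.736 and 0.646). Without vehicle 4 the value of Cebpa was 1.27.

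Of 8 targets of MLX with MondoA or ChREBP, 7 were tested and 0 were called at an unadjusted p under 0.05, beside 9.59% of all genes, and 7 genes are too few to set 0 apart from that share. The median was 0.02, from -0.05 without vehicle 4 to 0.17 without vehicle 3. Fasn, the fatty acid synthase, stood at 355 ± 82.6 and 476 ± 169 CPM (SD, n = 5 each; log2 fold change 0.42, SE 0.23; edgeR adjusted p = 0.568), falling to 0.19 without liraglutide 5, and Acaca, which makes its substrate, had 0.14 (SE 0.13). Arrdc4 and the liver pyruvate kinase gene Pklr had -0.0024 (SE 0.22) and -0.33 (SE 0.49). A pair of E-box-like letters CACGNG with 5 bases between, the form known as the carbohydrate response element, was searched on both strands. It was found in 1 promoter of the list, that of Txnip, and in 0.0487% of all promoters. The Txnip window is shown with the match in capitals.

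Txnip, chr3:96557822-96557938, plus strand, match starting 85 bases before the start: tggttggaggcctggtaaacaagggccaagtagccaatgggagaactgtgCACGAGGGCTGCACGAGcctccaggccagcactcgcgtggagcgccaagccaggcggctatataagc

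**Figure D3:**
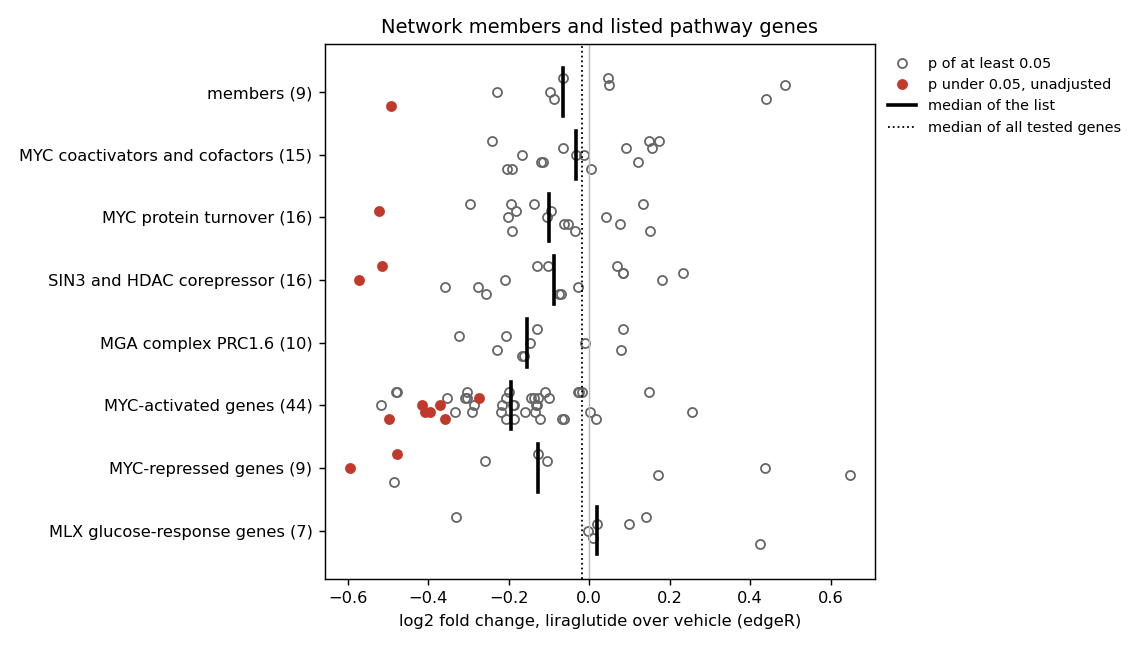
Log2 fold change, liraglutide over vehicle, of each tested gene in 8 lists (number tested in brackets), with filled points at an unadjusted p under 0.05, a bar at each list's median and a dotted line at the median of all tested genes. Most MYC-activated genes lie to the left of 0 with a median of -0.19, and no gene in any list passed the adjusted threshold in edgeR.

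Some members varied together from tumor to tumor. Mlx ranged only from 19.7 to 23.5 CPM, and the part of counting error in its relations was not tested. Over the 36 pairs of the 9 tested members, log2 CPM of Mxd4 and Mlx had r = -0.89 (permutation p = 0.0015, adjusted p = 0.0428; rho = -0.88, p = 0.00189, adjusted p = 0.0340; 10 tumors), and r was -0.80 without the 2 tumors farthest from the median. For Myc and Mlx r was 0.86 (permutation p = 0.00238, adjusted p = 0.0428; rho = 0.89, p = 0.00127, adjusted p = 0.0340), and 0.77 without the 2 farthest tumors. For Myc and Mxd4 r was -0.83 (permutation p = 0.00495, adjusted p = 0.0594; rho = -0.81, p = 0.00734, adjusted p = 0.0881). After subtracting the group means the 3 values were -0.85, 0.79 and -0.77, with adjusted permutation p of 0.0567, 0.0567 and 0.0968, so that no pair passed. Nor did any pair pass without vehicle 1, 2, 3 or 4 or liraglutide 2, 3 or 5, whereas 2 pairs did without each of the other 3 tumors. Values this strong were not rare among all genes: 5.65% of other tested genes had as large an r with Mxd4 as Mlx had, and 2.15% with Myc.

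The same axis ran through the proliferation markers, genes of DNA replication and mitosis. Over 27 relations of the 9 members with 3 marker lists, Mxd4 had r = -0.96 with the mean log2 CPM of the 8 proliferation markers (permutation p = 7e-05, adjusted p = 0.00189; rho = -0.94, p = 0.00015, adjusted p = 0.00405), and r = -0.95 after subtracting group means. Of other tested genes, 0.309% had as large an r. Myc had r = 0.89 (permutation p = 0.00174, adjusted p = 0.0157; rho = 0.87, p = 0.00272, adjusted p = 0.0367) and Mlx r = 0.87 (permutation p = 0.00259, adjusted p = 0.0175; rho = 0.84, p = 0.00421, adjusted p = 0.0377). Without the 2 tumors farthest from the median r was -0.94, 0.81 and 0.78 for the 3 genes, and after subtracting group means it was 0.88 for Myc and 0.84 for Mlx. As large an r was found in 3.49% of other tested genes for Myc and 5.01% for Mlx. With any 1 tumor left out the adjusted permutation p was at most 0.0165 for Mxd4, 0.0424 for Myc and 0.0478 for Mlx.

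The tumors were unevenly spread on this axis. The proliferation level was 6.92, 7.06, 7.03, 5.96 and 6.46 log2 CPM in vehicle tumors 1 to 5 and 6.21, 6.92, 6.18, 6.24 and 6.05 log2 CPM in liraglutide tumors 1 to 5. Vehicle 2 had the highest level, with the highest Myc and the lowest Mxd4 of all 10 tumors, and vehicle 4, with the lowest level, had 110 CPM of Myc and 54.8 CPM of Mxd4. Vehicle 1 to 3 and liraglutide 2 lay together at 6.92 to 7.06, and the other 6 tumors between 5.96 and 6.46; the relations within these sets were not tested. All values of a tumor come from 1 library.

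**Figure D4:**
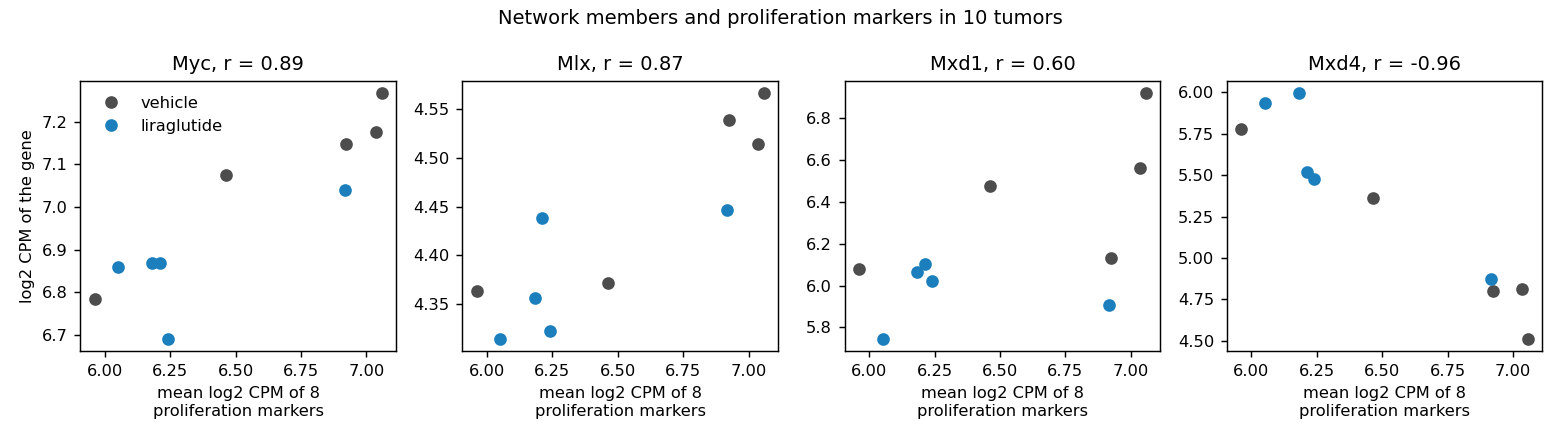
Log2 CPM of Myc, Mlx, Mxd1 and Mxd4 against the mean log2 CPM of 8 proliferation markers, 1 point per tumor, with vehicle in gray and liraglutide in blue. Mxd4 falls as the marker level rises (r = -0.96), Myc and Mlx rise with it (r = 0.89 and 0.87), and Mxd1 follows it less closely (r = 0.60, adjusted permutation p = 0.170).

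The 5 pan-leukocyte markers gave a second set of relations, not shown to be separate from those with proliferation. Vehicle 2 had the lowest pan-leukocyte level (3.87 log2 CPM) and the highest proliferation level (7.06). Vehicle 4 had the highest pan-leukocyte level (4.99) and the lowest proliferation level (5.96). How far these relations are shared was not tested. The summed level of the pan-leukocyte markers was 94.5 to 191 CPM in vehicle and 107 to 176 CPM in liraglutide tumors. With their mean log2 CPM, Mlx had r = -0.91 (permutation p = 0.00064, adjusted p = 0.00864; rho = -0.81, p = 0.00722, adjusted p = 0.0390), Mxd4 r = 0.85 (permutation p = 0.00423, adjusted p = 0.0228; rho = 0.82, p = 0.00559, adjusted p = 0.0377) and Mnt r = -0.77 (permutation p = 0.00577, adjusted p = 0.0260; rho = -0.78, p = 0.0112, adjusted p = 0.0505). Without the 2 farthest tumors these r were -0.80, 0.72 and -0.78, and after subtracting group means -0.96, 0.87 and -0.76. With a tumor left out the adjusted permutation p rose to at most 0.0281, 0.0856 and 0.130, so the calls of Mxd4 and Mnt depend on single tumors. These were common values, since 2.82%, 10.8% and 21.4% of other tested genes had as large an r. Myc had r = -0.73 (permutation p = 0.0192, adjusted p = 0.0706; rho = -0.70, p = 0.0295, adjusted p = 0.114), -0.50 without the 2 farthest tumors, and -0.77 after subtracting group means (adjusted permutation p = 0.0269). As large an r as that of Myc with the pan-leukocyte markers was found in 26.2% of other tested genes. Of the 9 tested members, none reached an adjusted permutation p under 0.05 with the neutrophil markers, from cells in which Mxd1 is known to be abundant.

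The genes whose log2 CPM followed each member most closely over the 10 tumors, among genes of at least 5 CPM, differed from member to member. For Myc they were Kifc1 (r = 0.96), a mitotic kinesin, Gas2l3 (0.95), a cytoskeletal protein of cell division, and Psmd2 (0.95), a proteasome subunit. For Mxd1 they were Gm38115 (0.95), Rnf14 (0.93) and Higd1a (0.91), a hypoxia-responsive mitochondrial gene. For Mxd4 they were Tmem150a (0.99), Kank2 (0.98), a cytoskeletal adaptor, and Slc25a23 (0.97), a mitochondrial carrier. For Mlx they were Cblb (0.99), a ubiquitin ligase, Rpl7a (0.99), a ribosomal protein, and Hapstr1 (0.99).

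Max was followed most closely by Traf3 (r = 0.96), a signaling adaptor, Furin (0.93), a protein-cleaving enzyme, and Ccdc77 (0.93). Mnt was followed by Pcdhgb7 (0.94), a protocadherin, Ddx47 (0.90), an RNA helicase, and Mettl2 (0.90), and Mga by Etfbkmt (0.91), Rsf1 (0.91), a chromatin remodeling factor, and Wdr45 (0.90). Of the low genes, Mycl was followed by Tle6 (0.91), Cldn12 (0.87) and Apmap (0.86), and Mxd3 by D6Wsu163e (0.92), Hspb8 (0.89) and Acsl5 (0.89).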

How the data were processed

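The authors deposited raw counts per gene without normalization: ribosomal RNA was depleted, dUTP-stranded libraries were read in pairs, and reads were mapped with Bowtie and TopHat and counted with featureCounts. The study's methods name GRCm39, while the submitters' processing notes list FastQC, GRCh38 and mm10; the strand setting, annotation release and handling of reads with several matches are not given in the sources used here. Identifiers were matched without version to GENCODE M39 on GRCm39 (51731 of 55401, 93.4%, holding 98.3% of counts), which gave positions and exon lengths, and 35 had the same version. Total counts were 9927942 to 14480593 per tumor, and floors of 3 counts cover counting error only.

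Groups came from the treatment label. Genes were filtered with filterByExpr, scaled by TMM and tested with the edgeR 4.0.16 quasi-likelihood test (treatment only, Benjamini-Hochberg adjustment over all tested genes) in R 4.3.3. Log2 CPM had a prior count of 2. Each named gene also had an exact permutation test, two-sided, of its log2 CPM, and correlations had 100000 permutations of pairings. Alternatives were DESeq2 1.42.0, limma-voom 3.58.1, DESeq2 size factors or library size alone in edgeR, all genes with at least 1 count, at least 10 counts in every tumor, the tumor number as a block, and each tumor left out. The fits were tested on simulated data. Promoter letters came from RefSeq, GRCm38.p6. The labels do not say that each tumor is from its own mouse, so p-values measure the spread between these samples.

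The members, lists and tests were chosen with earlier results of these data known. The genes named are the 10 members, every gene in lists of up to 3, in longer lists the 2 higher and 2 lower genes of smallest p (none passed the adjusted threshold), and for each tested member the 3 genes of highest r. The MYC-activated genes at an unadjusted p under 0.05, Gm44292, Prelid1 and Txnip were named after their values were seen. A few genes that this rule names, and details of the line, are not reported here.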

Additional observations from a re-analysis of the deposited data

Results flagged for a closer look

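Among 84 groups of 5 tumors checked for a value far from the rest of its group, 3 had one, fewer than the about 5% that chance gives. Ruvbl2 stood at 30.5 CPM in vehicle 4, against 46.7 CPM in the nearest other vehicle tumor. Tfdp1 stood at 72.4 CPM in the same tumor, against 109 CPM in the nearest. Fasn stood at 772 CPM in liraglutide 5, against 445 CPM in the nearest other liraglutide tumor. None of the 10 network genes had such a tumor in either group.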

How the results depend on the processing

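In edgeR 0 genes passed an adjusted p under 0.05 in every setting run, including each tumor left out, while DESeq2 called 52. At an unadjusted p under 0.05 edgeR called 1675 genes with all tumors. With 1 tumor left out the number ran from 919 (without liraglutide 5) to 2704 (without vehicle 4). No network member passed in any setting (DESeq2 gave 3 of them an adjusted p), and among the listed genes DESeq2 called 1, Nop58. Scaling by library size alone moved the split at an unadjusted p under 0.05 from 694 higher and 981 lower to 990 higher and 619 lower, and moved the median of all genes from -0.02 to 0.04. The 2 member pairs past the adjusted threshold became 0 with library size alone and with group means subtracted, and 0 to 2 with each tumor left out; the relations with marker levels numbered 4 to 7 then. Of 152 refitted values of the 9 tested members, 148 kept their sign. With each tumor left out, log2 fold changes ran from -0.22 to 0.16 for Mxd3, -0.18 to 0.050 for Mnt, -0.012 to 0.17 for L3mbtl2, -0.040 to 0.28 for Tert, -0.54 to 0.26 for Pklr and -0.090 to 0.17 for Arrdc4, and, with no change of sign, from 0.09 to 0.63 for Mycl, 0.19 to 0.53 for Fasn, 0.40 to 1.27 for Cebpa, 0.03 to 0.71 for Ccnd2, 0.05 to 0.21 for Acaca -0.85 to -0.38 for Mxi1, -0.76 to -0.38 for Ndrg1, 0.015 to 0.087 for Max, 0.013 to 0.13 for Mga and 0.0080 to 0.25 for Ring1. The Arrdc4 log2 fold change, -0.0024, became 0.0048 with DESeq2, 0.021 with limma-voom, 0.0032 with DESeq2 size factors, 0.055 with library size alone, 0.0039 with every gene, 0.024 with 10 counts in every tumor and 0.0080 with the replicate block. The cause was not tested. Depth limits Mycn, Mycl and Mlxipl, with at most 37 counts in a tumor.

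Whether the tumor numbers pair the tumors is not settled. Correlations of same-numbered deviations from the group means were 0.35, 0.57, -0.08, 0.07 and 0.39. Those of tumors with different numbers ran from -0.51 to 0.56. With the number as a replicate block 0 genes were called and 2585 had an unadjusted p under 0.05 (1309 higher and 1276 lower). Without the block 1675 had (694 higher and 981 lower). The block put 1 member higher and 2 lower at an unadjusted p under 0.05, and 1 SIN3 and histone deacetylase gene higher and 5 lower (0 and 2 without it), 1 MGA complex gene lower and 1 MYC-repressed gene higher (0 and 0 without it), and none after adjustment. Not every tumor correlated best with its own number.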

Other observations

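The listed targets and partners of MYC were also compared with the network genes across tumors. These relations were computed after the other values had been seen and are given as a description over 10 libraries. Of the 44 tested MYC-activated genes, 39 had a positive r with Myc (median r = 0.57, from -0.64 for Ccnd2 to 0.88 for Odc1, the first enzyme of polyamine synthesis), beside a median of 0.00 and 49.95% positive over all 17463 other tested genes. After subtracting group means the median was 0.51, with 34 positive. The pattern was not particular to that list, since the median r with Myc was 0.65 for the coactivators, 0.57 for the SIN3 and histone deacetylase genes and 0.52 for the genes of MYC protein stability. With Mxd4 the MYC-activated list had a median r of -0.67, with 6 positive, and -0.60 after subtracting group means. With Mxd1, a repressor, the median of that list was 0.39 with 40 positive, and 0.19 after subtracting group means. With Max the median was 0.19 with 28 positive, and 0.34 with 36 positive after subtracting group means.

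The SIN3 and histone deacetylase genes followed Mlx (median r = 0.77, 14 of 16 positive) and ran against Mxd4 (median r = -0.75, 3 of 16 positive). This was not particular to that list. With Mlx the median r was 0.64 for the genes of MYC protein stability and 0.62 for the coactivators. It was 0.60 for the MGA complex, 0.53 for the MYC-activated and 0.14 for the MYC-repressed genes. With Mxd4 the coactivators had -0.73, the stability genes -0.56, the MYC-repressed genes -0.17 and the glucose-response genes 0.26. The MGA Polycomb complex had a median r of 0.35 with Myc and -0.56 with Mxd4. The 7 tested glucose-response genes did not follow Mlx as a list (median r = -0.23, 3 positive, and 0.04 after subtracting group means), and Txnip had r = -0.76. The 9 MYC-repressed genes had a median r of 0.28 with Myc with 5 positive, and -0.14 with 3 positive after subtracting group means, and went both ways, from -0.84 to 0.66 before that step.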
